A study of Ovis aries with 20 samples.

Results

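TXNIP, MT3, FBXO32, CDKN1C, RGS2, CEBPB and HIF3A were taken as a set labelled glucocorticoid-responsive. That each of them responds to glucocorticoids in heart was not assumed. Their transcripts were followed in the hearts of newborn lambs. They were found by every array probe whose gene name or description names one of them, which gave 12 probes for 7 genes among 15008 probes, of which 1404 could be given a gene symbol, for 870 genes. The gene was represented by its brightest probe over all arrays, and the other probes are described beside it. TXNIP is listed on the array under its older name VDUP1, MT3 as MT-III, and the brightest RGS2 probe under a transcript cluster number with RGS2 in its description.

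The lambs (Ovis aries) were singletons, and those of both treatments are labelled telemetry newborns. Cortisol lambs came from ewes that received cortisol at 1 mg/kg per day by continuous infusion, starting near gestation day 115 and ending at birth, and control lambs came from ewes infused with vehicle over the same period, with 5 lambs in each treatment. The heart was taken between 10 and 480 min after birth, so every group includes animals that had gone through birth, and the time of each lamb is not used here. Left ventricle (LV) and interventricular septum were profiled separately, on 1 one-colour array each, which gave 5 arrays for each wall and treatment, 20 in all. The ewe, not the lamb, was infused, no genotype was altered, and each sample is whole ventricular wall. In such bulk tissue, fewer cells of a type and less RNA per cell cannot be told apart.

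Glucocorticoids such as cortisol cross into cells, bind the glucocorticoid receptor, and the receptor then moves to the nucleus and changes the transcription of target genes. Fetal cortisol rises before birth and takes part in the maturation of heart, lung and liver. The genes described here have different roles in the cell. TXNIP, a relative of the arrestins that binds thioredoxin and restrains glucose uptake, and MT3, a cysteine-rich protein of the metallothionein family that binds zinc and copper, belong to redox and metal handling. FBXO32 (atrogin-1), the substrate-recognition part of a muscle ubiquitin ligase, and CDKN1C (p57), an inhibitor of cyclin-dependent kinases, restrain muscle mass and cell division. RGS2 shortens signalling through Gq-coupled receptors, CEBPB is a basic leucine zipper transcription factor, and HIF3A is a member of the hypoxia-inducible factor family with forms that limit the other members.

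Both MT3 probes are printed because the most extreme value of the whole set was read by them. They come from the array design, are 60 bases long and overlap by 59 bases, so they are nearly the same sequence and not independent of each other. Capitals mark the TGC and TGT codons for cysteine, 6 in each probe, in a frame that a script found free of stop codons.
MT3 probe A_70_P030067 (brightest): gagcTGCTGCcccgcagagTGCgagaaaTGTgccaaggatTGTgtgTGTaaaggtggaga
MT3 probe A_70_P030066: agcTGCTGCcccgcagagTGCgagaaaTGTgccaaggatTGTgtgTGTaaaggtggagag
The 2 HIF3A probes also overlap by 59 bases. The 2 dimmer RGS2 probes overlap by 20 bases and share no stretch of 10 or more bases at their ends with the brightest RGS2 probe, and the 2 TXNIP probes do not overlap either. Probes of RGS2 and of TXNIP thus read separate stretches of transcript.

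All 12 probes were well above background on 20 of 20 arrays and none was saturated, so every value of a member below is a measured one. Over all spots, 57.9% to 72.1% per array were well above background, and the 75th percentile of the processed intensity ran from 98.4 to 440. Levels are log2 intensities relative to that percentile of the same array (0 is the percentile itself), and levels of different probes are not compared. The 2 arrays that share a treatment and a number, 1 of each wall, deviated together and were taken as the walls of 1 lamb. The arrays lay on 4 slides, with the LV of control 1, 2 and 4 and cortisol 1, 2 and 3 on slide 3, the septum of the same 6 lambs on slide 1, and all others on slide 2 except the LV of cortisol 4, the only array of slide 4. The heart muscle genes MB (myoglobin) and MYH7 (slow myosin heavy chain), the measured 2 of 18 cardiomyocyte markers, were well above background on every array.

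No member passed the test for cortisol in either wall. The test was limma over all probes detected on at least 5 of 10 arrays, with Benjamini-Hochberg adjusted p under 0.05 as the threshold. In LV 0 of 9791 probes passed (0%), with 505 at an unadjusted p under 0.05 (5.16%), and in septum 0 of 10369 passed (0%), with 384 at an unadjusted p under 0.05 (3.7%). None of the 7 members reached an unadjusted p under 0.05 in either wall. Their cortisol minus control difference was positive for 5 of 7 members in LV, with a median of 0.44, and for 6 of 7 in septum, with a median of 0.27. Of all probes tested, 48.7% were positive in LV and 54.7% in septum. For 0 of 7 members did the cortisol and control arrays separate without overlap in either wall, against 0.766% of all probes in LV and 0.386% in septum. The 2 walls come from the same lambs and are not separate evidence.

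**Figure D1:**
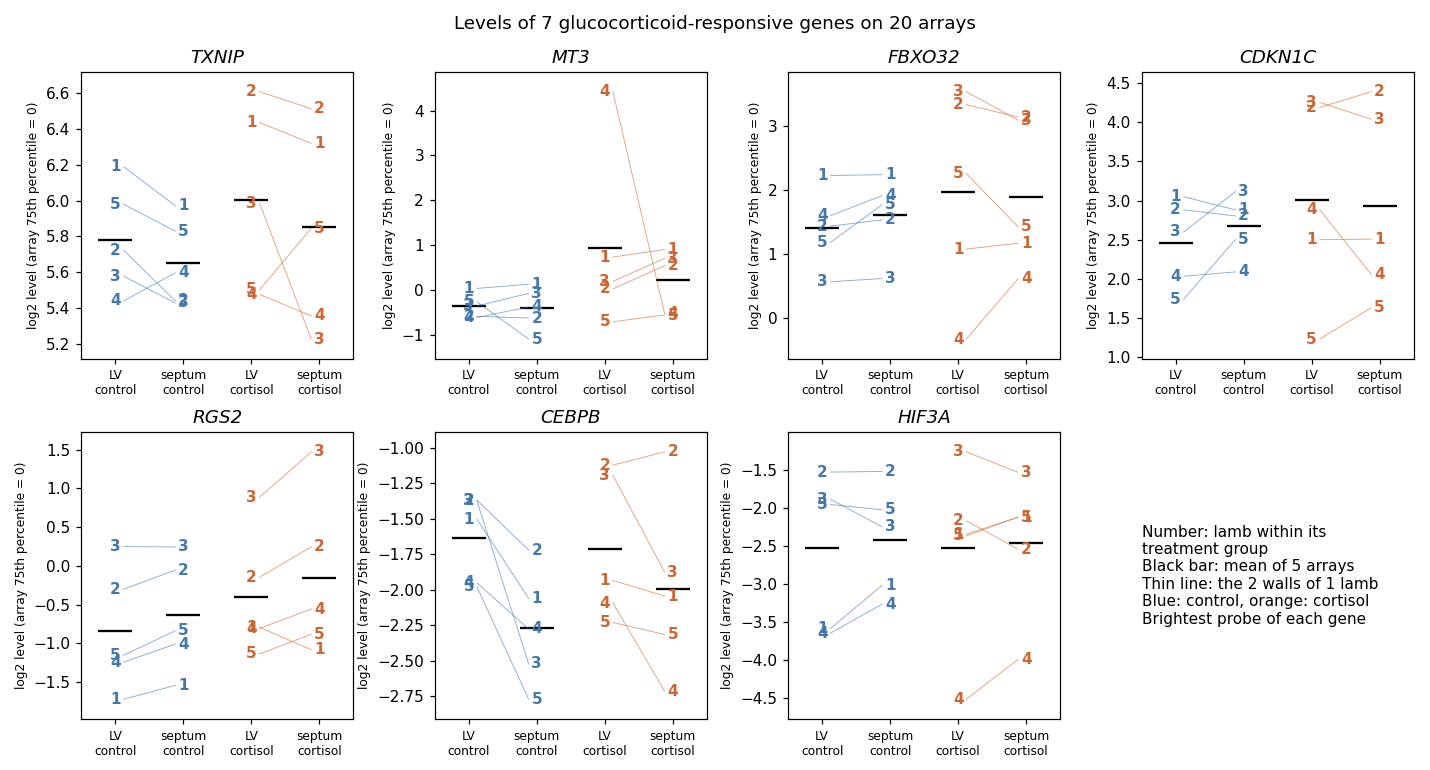
Level of each gene (log2, relative to the array's 75th percentile, brightest probe) on every array, with the number of the lamb as the symbol, control in blue and cortisol in orange, black bars for the mean of 5 arrays and thin lines joining the walls of 1 lamb. MT3 in the LV of cortisol 4 stands at 4.42 while the septum of that lamb is at -0.53, and cortisol 2 and 3 are the highest lambs for CDKN1C and FBXO32 in both walls.

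MT3 had the largest mean difference of the 7 in LV, and it rested on 1 array. In LV of control lambs 1 to 5 its level was 0.03, -0.59, -0.36, -0.62 and -0.27, and in LV of cortisol lambs 1 to 5 it was 0.73, 0.02, 0.19, 4.42 and -0.71. The LV of cortisol 4 lay far above the other 19 arrays, while the LV of cortisol 5 lay below all control LV arrays. The mean was -0.36 ± 0.27 (SD, n = 5) in control and 0.93 ± 2.02 in cortisol LV. The difference of 1.29 ± 0.78 (SE) did not pass (limma adjusted p = 0.880). Without the LV array of cortisol 4 it was 0.42 ± 0.28 (limma adjusted p = 0.646). The nearly identical second probe also read its highest value there, 3.93, against -1.33 to 0.26 in the other cortisol LV arrays.

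The septum of cortisol 4 did not share the high MT3 level. Septum MT3 was 0.12, -0.63, -0.08, -0.38 and -1.10 in control lambs 1 to 5 and 0.90, 0.54, 0.70, -0.53 and -0.56 in cortisol lambs 1 to 5. On this brightest probe cortisol 1, 2 and 3 were above every control septum, and cortisol 4 and 5 were within the control range. The difference was 0.62 ± 0.35 (limma adjusted p = 0.818), and 3 of 5 cortisol arrays exceeded the mean of the control septum. The second probe gave 0.44 ± 0.37 in septum (limma adjusted p = 0.818), and there cortisol 2 (-0.16) lay below control 2 (-0.11). In the LV of cortisol 4 the chemokine CXCL1 (6.56, other arrays 2.23 to 4.93) and the nucleic acid-binding protein PURA (3.38, other arrays 1.23 to 2.53) were also at their highest. GFAP, a glial marker and the measured 1 of 5 neural and glial markers, was at -2.53 there, within its range of -2.92 to -0.31 elsewhere. MT4, another metallothionein, whose probe shares no run longer than 8 bases with the brightest MT3 probe, was at -6.50, between -7.41 and -4.88 elsewhere. Whether these low MT4 levels were above background is not given, so they cannot show whether MT4 changed. CXCL1, PURA and MT4 were chosen after their values were seen, and that array is also alone on its slide. The part of slide in the MT3 value was not tested.

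TXNIP differed little. Its LV level ranged from 5.44 to 6.19 (median 5.72) in control and from 5.48 to 6.61 (median 5.99) in cortisol lambs, and its septum level from 5.43 to 5.97 and from 5.23 to 6.51. Cortisol 1 and 2 were the highest lambs of both walls. In LV the other 3 cortisol lambs lay within the control range, while in septum cortisol 3 (5.23) and cortisol 4 (5.36) lay below every control array. The difference was 0.22 ± 0.26 in LV and 0.20 ± 0.26 in septum (limma adjusted p = 0.903 and 0.856). The second TXNIP probe, which reads another stretch, gave 0.04 ± 0.27 and 0.04 ± 0.26. Without cortisol 2 the difference of the brightest probe was 0.07 in LV and 0.03 in septum.

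FBXO32 and CDKN1C were highest in the same pair of lambs. FBXO32 in LV was 2.23, 1.43, 0.56, 1.60 and 1.18 in control lambs 1 to 5 and 1.07, 3.34, 3.54, -0.34 and 2.26 in cortisol lambs 1 to 5. In septum it was 2.24, 1.53, 0.61, 1.91 and 1.77 in control and 1.17, 3.15, 3.10, 0.61 and 1.42 in cortisol lambs. Cortisol 2 and 3 were above every control array in both walls, and cortisol 4 was the lowest lamb. Cortisol 5 was also above every control array in LV (2.26), but not in septum (1.42). The difference was 0.58 ± 0.67 in LV and 0.27 ± 0.52 in septum (limma adjusted p = 0.898 and 0.896). It was 1.15 ± 0.50 in LV without cortisol 4 and 0.18 ± 0.64 without cortisol 3 (limma adjusted p = 0.583 and 0.986).

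CDKN1C in LV was 3.05, 2.88, 2.60, 2.03 and 1.74 in control lambs 1 to 5 and 2.50, 4.19, 4.25, 2.88 and 1.23 in cortisol lambs 1 to 5. In septum it was 2.88, 2.80, 3.11, 2.09 and 2.50 in control and 2.51, 4.39, 4.04, 2.06 and 1.63 in cortisol lambs. Cortisol 2 and 3 again stood above every control array in both walls, while cortisol 5 was lower than every control array. The difference was 0.55 ± 0.54 in LV and 0.25 ± 0.50 in septum (limma adjusted p = 0.887 and 0.906). In LV it was 0.24 without cortisol 3 and 0.99 without cortisol 5, and in septum it turned to -0.12 without cortisol 2 and to -0.03 without cortisol 3.

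RGS2 was read by 3 probes that agreed on the sign of the cortisol difference but not on its size. On the brightest probe LV levels were -1.72, -0.30, 0.25, -1.25 and -1.16 in control lambs 1 to 5 and -0.79, -0.15, 0.89, -0.81 and -1.14 in cortisol lambs 1 to 5. Septum levels were -1.55, -0.05, 0.24, -1.01 and -0.84 in control and -1.08, 0.24, 1.47, -0.56 and -0.89 in cortisol lambs. Cortisol 3 was the highest lamb of both walls, and the other 4 cortisol lambs lay within the control range in LV. The difference was 0.44 ± 0.45 in LV and 0.48 ± 0.50 in septum (limma adjusted p = 0.890 and 0.837). Without cortisol 3 it was 0.11 in LV and 0.07 in septum. Probes A_70_P012621 and A_70_P012622 gave 0.85 ± 0.55 and 0.86 ± 0.55 in LV and 0.96 ± 0.50 and 1.07 ± 0.50 in septum. Their limma adjusted p was 0.880 in LV and 0.818 in septum for both. Without cortisol 3 these 2 probes gave 0.53 and 0.49 in LV and 0.57 and 0.70 in septum, and did not pass.

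CEBPB and HIF3A had the smallest differences in LV. CEBPB was at -1.64 ± 0.31 (SD, n = 5) in control and -1.72 ± 0.52 in cortisol LV, and at -2.27 ± 0.41 and -2.00 ± 0.63 in septum. The cortisol minus control difference was -0.08 ± 0.26 in LV and 0.27 ± 0.31 in septum (limma adjusted p = 0.968 and 0.840), and the septum value was 0.03 without cortisol 2. HIF3A in LV was -3.59, -1.53, -1.89, -3.65 and -1.96 in control lambs 1 to 5 and -2.35, -2.17, -1.27, -4.52 and -2.37 in cortisol lambs 1 to 5. Its lowest lamb was cortisol 4, also in septum at -4.00, and control 1 and 4 were low in both walls. The HIF3A difference was -0.01 ± 0.61 in LV and -0.05 ± 0.46 in septum (limma adjusted p = 0.997 and 0.984), and its sign was not stable: it was 0.48 in LV and 0.34 in septum without cortisol 4.

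The direction depended on which lambs were compared within a slide. Among the 6 lambs whose arrays shared slide 3 (LV) and slide 1 (septum), the difference was positive for 7 of 7 members in each wall, where 50.9% and 55.4% of all probes were positive. It ran from 0.19 for CEBPB to 1.07 for RGS2 in LV, and from 0.35 for TXNIP to 1.08 for RGS2 in septum. For MT3 it was 0.71 ± 0.29 in LV and 1.01 ± 0.26 in septum, and 0.73 ± 0.32 and 0.73 ± 0.31 on its second probe. On slide 2, which held only cortisol 5 of the treated LV and cortisol 4 and 5 of the treated septum beside control 3 and 5, it was positive for 1 of 7 members in LV (51% of all probes) and for 2 of 7 in septum (50.3%). CDKN1C was at 0.99 and 1.05 within slides 3 and 1 but at -0.94 and -0.96 within slide 2. Array brightness also differed by treatment. The 75th percentile was 98.4, 108 and 98.7 in cortisol and 101, 192 and 262 in control LV of slide 3. It was 176, 304 and 155 in cortisol and 266, 440 and 320 in control septum of slide 1. On slide 2 it was 271 in cortisol against 128 and 239 in control LV, and 256 and 291 against 282 and 277 in septum. The part of brightness in these differences was not tested. No within-slide difference of a member passed, and slide and lamb cannot be told apart, since both arrays of a lamb followed 1 of the 2 slide sets except for cortisol 4.

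**Figure D2:**
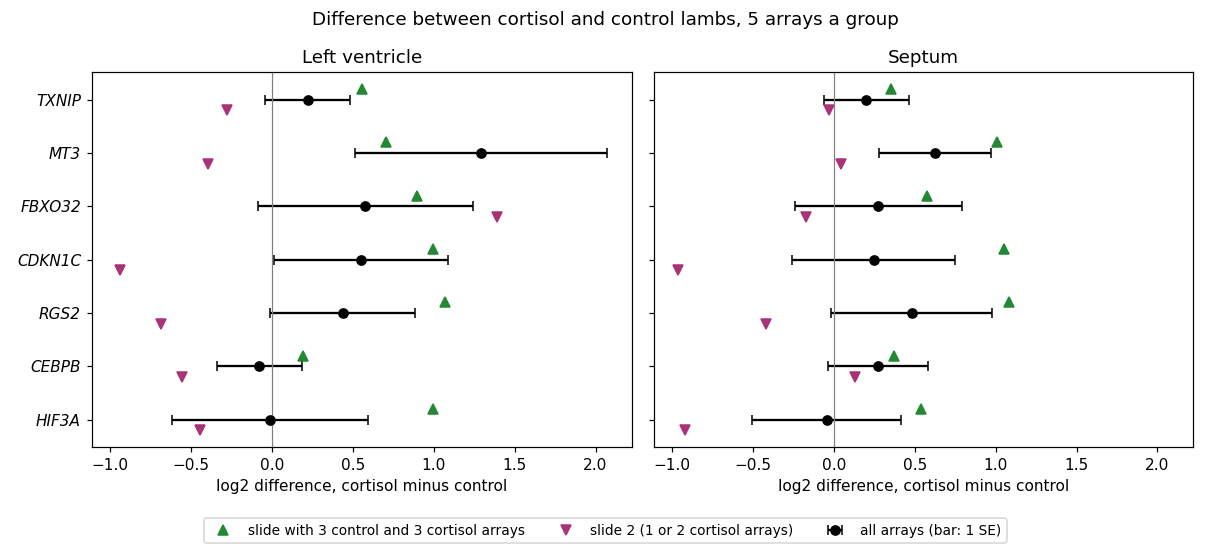
Cortisol minus control difference on the log2 scale for each gene (brightest probe) in LV and septum, over all arrays (black, bar of 1 SE, 5 arrays a group) and within slides (triangles). Within the slides with 3 control and 3 cortisol arrays 7 of 7 genes are above 0 in each wall, while on slide 2 1 of 7 in LV and 2 of 7 in septum are.

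The spread between lambs was larger after cortisol for each of the 7 genes in both walls. The SD of the cortisol group was 1.01 to 7.60 times that of the control group in LV (median 1.72, the highest for MT3) and 1.29 to 3.10 times in septum (median 1.54, the highest for CDKN1C). For CDKN1C it was 0.56 in control and 1.26 in cortisol LV, and 0.40 and 1.22 in septum. Most of the array shared this, since 75.5% of the probes tested in LV and 77.4% of those in septum also had the larger SD in the cortisol group.

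Septum was then compared with LV within each treatment. In control lambs 174 of 10333 probes passed in the comparison without pairing (1.68%), 2 higher (0.0194%) and 172 lower (1.66%) in septum, and 0 of 7 members did. The septum minus LV difference was positive for 4 of 7 members (50.8% of all probes), and the 2 walls did not separate for any member (5.15% of all probes). In cortisol lambs 0 of 9902 probes passed (0%), with 161 at an unadjusted p under 0.05 (1.63%), the difference was positive for 2 of 7 members (54% of all probes), and the walls separated for 0 of 7 (0.313%). The difference between walls in the cortisol effect passed for 0 of 10069 probes (0%), with 38 at an unadjusted p under 0.05 (0.377%), and 2 of 7 members had a positive difference (56.5% of all probes), in a range from -0.67 (MT3) to 0.35 (CEBPB), with limma adjusted p of 1.00 for all 7.

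CEBPB was lower in septum than in LV of the same animal in 5 of 5 control lambs. In control lambs 1 to 5 its LV level was -1.50, -1.37, -1.37, -1.95 and -1.98, and its septum level -2.06, -1.72, -2.52, -2.28 and -2.77. Every septum array was below the LV mean, although the 2 sets of levels overlapped. The septum minus LV difference was -0.64 ± 0.22 and did not pass without pairing (limma adjusted p = 0.188). With the lamb as a block it was -0.64 ± 0.13 and passed (limma adjusted p = 0.0232), in a fit where 1951 of 10333 probes passed (18.9%), 669 higher (6.47%) and 1282 lower (12.4%) in septum. In cortisol lambs the difference was -0.28 ± 0.34, with septum lower in 4 of 5 lambs, and it did not pass with the block either (limma adjusted p = 0.570). The CEBPB interaction of cortisol and wall was 0.35 ± 0.42 (limma adjusted p = 1.00), so the 2 treatments were not shown to differ in it.

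Some cell type markers also differed between the control walls. Their values are from the fit without pairing, in which CEBPB itself did not pass (limma adjusted p = 0.188). Marker values with the lamb as a block are not given. Of the 4 measured fibroblast markers of 7, COL1A2 (-1.24 ± 0.20, limma adjusted p = 0.0170) and COL3A1 (-1.43 ± 0.25, limma adjusted p = 0.0227), both collagen chains, were lower in septum, while COL1A1 was at -0.62 ± 0.24 and DCN at -0.06 ± 0.18. The summed fibroblast level was 5.14 to 5.87 (median 5.45) in control LV and 4.96 to 5.70 (median 5.43) in control septum. Of 2 measured myeloid markers of 5, CD14 was at -0.19 ± 0.44 and TYROBP at -0.85 ± 0.24 (limma adjusted p = 0.118), and their summed level was -0.58 to 0.48 in LV and -1.23 to -0.33 in septum. The 3 measured adipocyte markers of 4, FABP4 (-2.02 ± 0.96), LEP (-0.48 ± 0.36) and PLIN1 (-0.29 ± 0.17), did not pass, and their summed level was -1.71 to -0.81 in LV and -2.16 to -1.55 in septum. None of the 4 measured endothelial markers passed, with KDR at -0.76 ± 0.26 (limma adjusted p = 0.188) and a summed level of 3.69 to 3.98 in LV and 3.66 to 3.91 in septum. The part of these cells in the CEBPB value was not tested. Slide was largely shared with wall: on slide 2, which held both walls of control 3 and 5, the CEBPB difference was -0.97 ± 0.28 (limma adjusted p = 0.555). With normexp background correction of the raw intensities the CEBPB difference was -0.23 ± 0.30.

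The RGS2 probes went opposite ways between the control walls. The brightest gave 0.19 ± 0.43, with septum lower in 1 of 5 lambs, while A_70_P012621 gave -0.63 ± 0.34 and A_70_P012622 gave -0.57 ± 0.41, each with septum lower in 5 of 5 lambs. The latter did not pass without pairing (limma adjusted p = 0.433 and 0.596) and passed with the lamb as a block (limma adjusted p = 0.0244 and 0.0440). RGS2 thus has no single direction between the walls on this array.

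The other members differed by less than their standard errors between the control walls in the fit without pairing. FBXO32 was higher in septum in 5 of 5 control lambs, by 0.01 to 0.59, with a mean of 0.21 ± 0.35 (limma adjusted p = 0.863, and 0.188 with the lamb as a block). CDKN1C was at 0.22 ± 0.28, HIF3A at 0.10 ± 0.49, MT3 at -0.05 ± 0.23 and TXNIP at -0.13 ± 0.17. In cortisol lambs MT3 was at -0.72 ± 0.82 between the walls, and at 0.34 ± 0.39 without cortisol 4, so that its direction turned with that lamb.

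**Figure D3:**
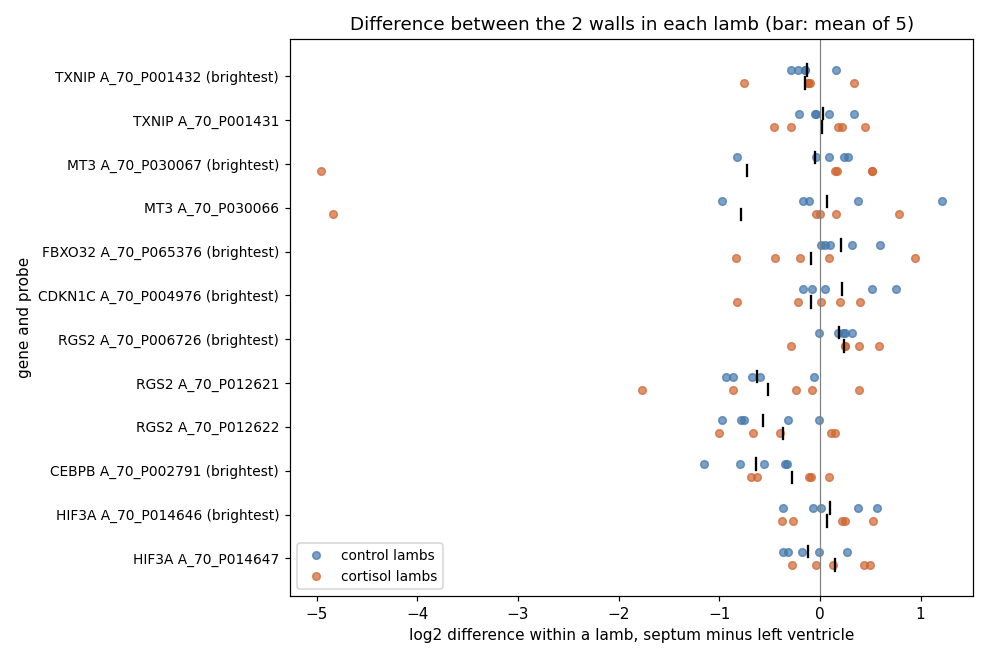
Septum minus LV difference within each lamb on the log2 scale for all 12 probes, control lambs in blue and cortisol lambs in orange, with bars at the mean of 5. CEBPB and the 2 dimmer RGS2 probes lie below 0 in 5 of 5 control lambs, the brightest RGS2 probe does not, and MT3 in cortisol 4 is at -4.96 and -4.84 on its 2 probes.

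The LV and septum levels of a lamb were correlated for 6 of the 7 members. After the treatment means were removed, the LV and septum levels of the 10 lambs correlated at r = 0.97 for HIF3A and RGS2, 0.93 for FBXO32, 0.89 for CDKN1C, 0.76 for CEBPB and 0.75 for TXNIP. These values describe lambs that were recognised as pairs from the shared deviations of all probes, so no test is given. Those deviations correlated between the walls at 0.447 to 0.813 in the 10 lambs. The r of single probes outside the members was not taken, so a high r is not read as particular to them. MT3 was the exception, at r = -0.28, and its walls differed by a median of 0.26 but by 4.96 in cortisol 4. The median difference between the walls of a lamb was widest for CEBPB, at 0.45. The SD between lambs within a treatment, on the mean of both walls, was 1.06 for FBXO32, 0.96 for HIF3A, 0.92 for CDKN1C, 0.84 for RGS2, 0.70 for MT3, 0.45 for CEBPB and 0.40 for TXNIP.

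Members were compared with each other over the 10 lambs, on the mean of both walls with treatment means removed. Of 21 pairs, 15 had a positive Pearson r, a share that was not taken over all genes. Unadjusted p was under 0.05 for 2 pairs, and 0 passed after Benjamini-Hochberg adjustment over the 21 (exact two-sided permutation within treatments, 14400 arrangements). CDKN1C and CEBPB came closest, at r = 0.86 (exact permutation p = 0.0100, adjusted 0.210) and Spearman rho = 0.79 (exact permutation p = 0.0230, adjusted 0.483). Without cortisol 2 and 3, the lambs farthest from the CDKN1C median, r was 0.60, and within the 6 lambs of 1 slide set it was 0.88.

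CDKN1C and RGS2 followed at r = 0.68 (exact permutation p = 0.0480, adjusted 0.398) and rho = 0.51 (exact permutation p = 0.163, adjusted 0.671), with r of 0.28 without the same 2 lambs and 0.60 within the slide set. CDKN1C and FBXO32, both highest in cortisol 2 and 3, had r = 0.60 (exact permutation p = 0.210, adjusted 0.619) and rho = 0.60 (exact permutation p = 0.151, adjusted 0.671), and r turned to -0.44 without those 2 lambs. Their positive r rests on that pair of animals. HIF3A and MT3 had the most negative r, -0.63 (exact permutation p = 0.0928, adjusted 0.398), with rho = -0.46 (exact permutation p = 0.221, adjusted 0.671), and r was -0.27 without control 4 and cortisol 4.

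**Figure D4:**
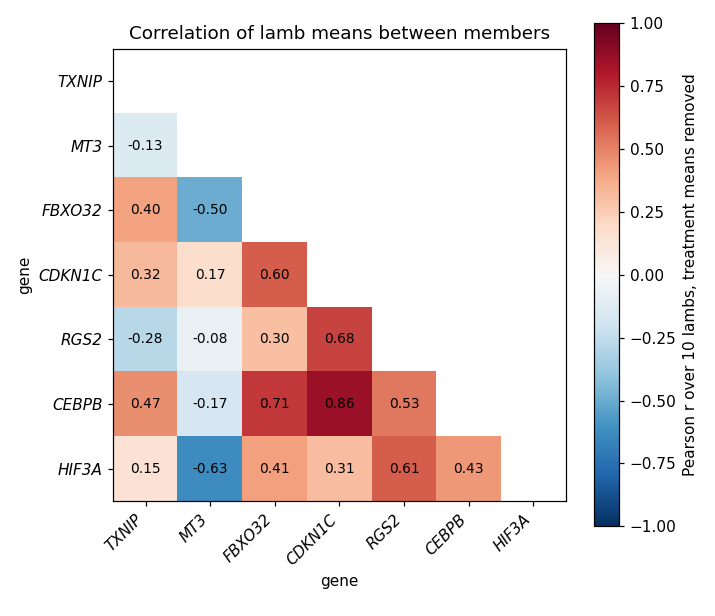
Pearson r between members over 10 lambs, on lamb means of both walls with treatment means removed. CDKN1C with CEBPB is the highest at 0.86, HIF3A with MT3 the lowest at -0.63, and none of the 21 pairs passed after adjustment.

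Array brightness was set beside the members, as the brightest arrays also differ by lamb. Over the 10 lambs, the r of a member with the log2 75th percentile ran from -0.59 for CDKN1C (rho = -0.64, exact permutation p = 0.187 and 0.125) to -0.04 for MT3 (rho = -0.20, exact permutation p = 0.939 and 0.619). All 7 were negative, but the share of negative r over all probes was not taken. None passed after adjustment over the 7 (adjusted exact permutation p of r from 0.439 to 0.939). For CDKN1C r was -0.68 without the 2 lambs farthest from the median brightness and -0.03 within the slide set of 6 lambs. For TXNIP these values were -0.75 and -0.10, and for MT3 they were -0.01 and -0.87. Within the slide set the members other than MT3 ran from -0.10 for TXNIP to 0.31 for CEBPB.

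Among 523 named genes that were well above background on at least 10 arrays and had a value on all 20, the 2 most similar to each member were found by Pearson r over the 20 arrays with group means removed. Pairs of those arrays share a lamb, slides and scaling, so no test is given. RGS2 was most like ACTG1, a cytoplasmic actin (0.94), and the chemokine CXCL8 (0.84). CDKN1C was most like the kinase CSNK1D (0.89) and the small GTPase RAP2A (0.88). FBXO32 was most like CAPN2, a calpain protease (0.89), and RHOA (0.88), and HIF3A was most like CAST, the calpain inhibitor (0.88), and the antimicrobial peptide gene BAC5 (0.87). CEBPB was most like TGFBR2, a receptor for transforming growth factor beta (0.85), and RAC1 (0.84), and TXNIP was most like SERPINC1, antithrombin (0.82), and the proteoglycan DCN (0.79). MT3 was most like CXCL1 (0.88) and PURA (0.82), which came to 0.73 and 0.69 without the LV array of cortisol 4.

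Of 40 other genes listed as glucocorticoid-responsive, 7 were measured (PER2, NFKBIA, PCK1, G6PC1, IGFBP1, NFIL3 and SLC2A4). In LV 4 were tested and 0 passed, with 4 of 4 positive and a median of 0.39. In septum 5 were tested and 0 passed, with 5 of 5 positive and a median of 0.19. The 2 with the smallest unadjusted p in both walls were NFIL3, a basic leucine zipper repressor, at 1.92 ± 0.47 in LV and 1.25 ± 0.55 in septum, and the clock gene PER2, at 0.64 ± 0.27 and 0.19 ± 0.20. The glucocorticoid receptor gene NR3C1 was at 0.66 ± 0.28 in LV, where 5 of 5 cortisol arrays exceeded the control mean, and at 0.31 ± 0.34 in septum, and it did not pass in either (limma adjusted p = 0.880 and 0.840).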

How the data were processed

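RNA of LV and septum was hybridised to 20 one-colour (Cy3) Agilent sheep arrays. Per the file headers, Feature Extraction 10.1.1.1 made the deposited processed intensity of each spot by background subtraction and detrending, with no normalization between arrays. Raw and background intensities from the same deposited files served 1 alternative. The authors' deposited value table holds log2 values for 10373 probes and was used as another. Its normalization is not given in the sources used here. The submitters' processing notes name limma.

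From each log2 processed intensity the 75th percentile of its array was subtracted, repeated spots of a probe were averaged, and outlier spots (2 to 68 on an array) were dropped. Tests used limma 3.58.1 (statmod 1.5.0, R 4.3.3) over all probes well above background on at least 5 of 10 arrays (10 of 20 for the interaction), with the groups compared in 1 fit. The script was tested on simulated data. Correlations used exact permutations (Python 3.11.15, numpy 2.4.6). The number of arrays limits the precision. The p-values for cortisol within a wall and for the correlations over lambs reflect the spread between lambs. With the lamb as a block, p-values between the walls reflect how much the wall difference varies over lambs. Fits of wall and of the interaction without pairing counted the 2 arrays of a lamb as independent.

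LV and septum arrays of 1 treatment and number correlated at 0.447 to 0.813 in their deviations, highest with each other in 10 of 10, and were treated as 1 lamb. Equal numbers in control and cortisol did not meet the rule for pairing. Named genes were the members, the 2 other glucocorticoid-responsive genes of smallest p in each wall, the 2 genes most similar to each member, NR3C1 and cell type markers. The members and lists were chosen with earlier results of these data known. No genome coordinates are printed, since a genome was not used here.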

Additional observations from a re-analysis of the deposited data

Results flagged for a closer look

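Of 28 groups of 5 arrays (7 genes in 4 groups), 1 held an array whose gap to its nearest neighbour was over 0.71 of the group's range. It was MT3 in LV cortisol, where the array of cortisol 4 read 4.42 and the next highest 0.73. Chance alone marks about 1 group in 20, so 1 mark among 28 groups is no more than chance gives. The septum of the same lamb was at -0.53.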

How the results depend on the processing

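The brightest probes of the 7 genes gave 35 results over 5 comparisons. These were set against 639 recalculated differences, in which a dimmer probe entered only through the main fit. Of the 639, 65 had the other sign and 1 passed the threshold. That was CEBPB between the control walls with the lamb as a replicate block (-0.64, limma adjusted p = 0.0232). The 2 dimmer RGS2 probes, which also passed with that block, are not counted among the 639. No sign turned for 9 of the 35 results, among them MT3 and CEBPB after cortisol in septum, FBXO32 after cortisol in LV, and CEBPB between the walls in both treatments. The replicate block on control and cortisol arrays that share only a number gave 0 calls in LV and in septum, as the analysis without it did. Deviations of arrays with a shared number correlated at 0.0723 to 0.288 in LV (over 0.1 for 4 of 5) and at 0.0577 to 0.273 in septum (3 of 5), with 3 of 5 control arrays closest to their own number in each wall. The lamb block moved the count between the control walls from 174 to 1951, and it changed no call of the other 6 brightest probes. That count was also 0 with normexp background correction, 350 with no filter on dim probes, 4 with all 20 arrays in 1 fit, 0 within slide 2 and 0 to 91 without each control lamb in turn. The count was 0 in limma for every alternative run of the other 4 comparisons, with 0 to 1817 probes at an unadjusted p under 0.05. Without the filter the median of all probes moved to 0.13 for cortisol in septum and to -0.11 between the control walls. The cause of these turns was not tested.

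For cortisol in LV, the deposited table gave HIF3A 0.10 and TXNIP -0.0024, slide as a fixed block gave HIF3A 0.55 and as a random block 0.12. Within slide 3 HIF3A was 1.00 and CEBPB 0.19, and within slide 2 CDKN1C was -0.94, MT3 -0.40, RGS2 -0.68 and TXNIP -0.28. Leaving out 1 array gave CEBPB -0.23 to 0.050 and HIF3A -0.33 to 0.48. For cortisol in septum, HIF3A was 0.065 on its other probe and 0.54 within slide 1, and TXNIP was -0.074 in the deposited table, where CEBPB and HIF3A had no septum values. Within slide 2 CDKN1C was -0.96, FBXO32 -0.18, RGS2 -0.42 and TXNIP -0.028. Leaving out 1 array gave CDKN1C -0.12 to 0.57, FBXO32 -0.040 to 0.60 and HIF3A -0.28 to 0.34.

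Between the control walls the other probes gave HIF3A -0.12, MT3 0.070, TXNIP 0.027 and RGS2 -0.63 and -0.57, normexp gave FBXO32 -0.035, and slide 2 gave HIF3A -0.22. Leaving out 1 lamb gave HIF3A -0.011 to 0.22 and MT3 -0.13 to 0.14. Between the cortisol walls the other probes gave RGS2 -0.51 and -0.36 and TXNIP 0.020, slide as a random block gave CDKN1C 0.15, and slide 2 gave CDKN1C 0.61, HIF3A -0.69, MT3 0.16 and TXNIP 0.099. Leaving out 1 lamb gave CDKN1C -0.21 to 0.099, FBXO32 -0.35 to 0.099, HIF3A -0.042 to 0.18, MT3 -1.03 to 0.34 and TXNIP -0.27 to 0.0032. For the difference between walls in the cortisol effect, the other HIF3A probe gave 0.27, and quantile normalization gave RGS2 -0.00034 and TXNIP 0.00068. Leaving out 1 lamb gave HIF3A -0.15 to 0.081, MT3 -0.98 to 0.39, RGS2 -0.043 to 0.18 and TXNIP -0.14 to 0.13. No pair of members passed in any alternative of the correlations over lambs, which included leaving out each lamb, an alternative chosen after seeing the data. Within the 6 lambs of 1 slide set the arrangements were too few for a single pair to pass.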
